A study of Homo sapiens with 14 samples.

Results

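The BCL2 family of survival and death genes was followed through A375 melanoma cells carrying an allelic series of ZC3H18 (Z18), a zinc-finger protein that links capped nuclear RNA to the RNA surveillance machinery. The 10 genes described here, of 28307 gene symbols in the deposited gene files, were picked by name: the pro-survival genes BCL2, BCL2L1, MCL1 and BCL2A1, the effector BAK1, and the BH3-only genes PMAIP1, BMF, BCL2L11, BID and BAD. They were picked with their FPKM (fragments mapped to a gene, scaled to its transcript length and to the depth of the library) in all 5 groups in view, so their levels and differences are given as a description without tests.

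Poly(A)-selected, strand-specific RNA-seq was done on 14 libraries of A375, an established human melanoma line. All cells had been transiently transfected with a vector and selected with antibiotic. The paper reports that the vector expressed Cas9, with no guide RNA in the empty-vector cells. The bulk libraries came from the selected populations, and the clone libraries from clones grown out afterwards. Differences between bulk and clone libraries cannot be told apart from this difference in handling. The bulk control group (n = 3) was an uncloned population that received the empty vector, and the bulk CRISPR group (n = 3) was an uncloned population labelled as Z18 knockout, in which cells with different edits and unedited cells can be mixed. The other 8 libraries each came from 1 clone isolated by limiting dilution: WT clones from the empty-vector cells (n = 2), -/+ clones with heterozygous loss of function (n = 3) and trunc/+ clones with a heterozygous truncating mutation (n = 3). Not all trunc/+ clones carried the intended repair-directed edit, the others having different truncating mutations that are also known from patients, so a genotype is a set of single clones with their own histories. In the bulk populations a change in the number of cells of one kind and a change in RNA per cell cannot be told apart.

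The libraries held 15615675 to 33018360 aligned fragments, with the shallowest in the bulk controls (15615675 to 26668594) and the -/+ clones (18742399 to 24837091). ZC3H18 RNA was 38.1, 13.9 and 48.7 FPKM in bulk controls 1 to 3 and 10.4 to 12.8 in bulk CRISPR, so control 2 lay nearest to the edited populations. It was 22.0 to 23.5 in the WT clones, 16.1 to 17.1 in -/+ and 8.70 to 14.3 in the trunc/+ clones. The label melanoma was matched in part: SOX10, a neural crest transcription factor, was at 10.8 to 33.6 FPKM in the bulk libraries and 47.8 to 212 in the clones, whereas the pigment genes MLANA and TYR were listed at 0 in all 14 libraries and PMEL did not exceed 0.559 FPKM. Of the haematopoietic markers reported here, PTPRC, CD3E and HBB did not exceed 0.0305, 0.0337 and 0.0962 FPKM. LYZ, a secreted lysozyme, was at 0.575 to 7.54 FPKM and reached 1 FPKM in 11 of 14 libraries, and CD68, a lysosomal protein found well beyond macrophages, was at 13.6 to 70.3. The 5 fibroblast markers summed to 2.54 to 11.0 FPKM, with LUM at 0.575 to 7.78, the 3 endothelial markers summed to at most 0.351 and the 3 epithelial markers summed to at most 0.391 FPKM in every library.

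Proteins of this family decide whether the outer mitochondrial membrane is opened, the step that releases cytochrome c and commits a cell to apoptosis. BCL2, BCL-XL (from BCL2L1), MCL1 and BFL1 (from BCL2A1) hold the effectors BAK and BAX inactive, and BH3-only proteins bind into the groove of the pro-survival proteins or activate the effectors directly. The balance is set for a large part after transcription, since MCL1 and NOXA (from PMAIP1) are short-lived proteins and BAD and BIM (from BCL2L11) are regulated by phosphorylation downstream of growth factor and MAPK signalling. In melanoma, BCL2A1 is known as a lineage survival gene that the melanocyte transcription factor MITF activates, and it is also a classical NF-kB target.

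BCL2A1 lies on chromosome 15 (hg38, 79960892 to 79971196, minus strand). The 250 bases before its annotated start are shown because the gene varied most of the 10 and because this stretch holds the letters that MITF-type factors bind. The capitals mark an M-box (TCATGTG) that starts 26 bases before the start and an interferon response motif (searched as TTTC and TTTC with any 2 bases between) 133 bases before it. The BMF stretch, from the gene with the next widest range, is shown beside it and held none of the 4 motifs searched on both strands. Both sequences are from RefSeq on GRCh38.p14, minus strand, 5′ to 3′, at chr15:79971197-79971446 and chr15:40108880-40109129.
BCL2A1: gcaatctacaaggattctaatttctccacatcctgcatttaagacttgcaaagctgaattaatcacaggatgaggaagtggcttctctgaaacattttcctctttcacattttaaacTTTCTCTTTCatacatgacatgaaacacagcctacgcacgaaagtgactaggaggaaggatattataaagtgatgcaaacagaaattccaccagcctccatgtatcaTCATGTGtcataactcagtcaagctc
BMF: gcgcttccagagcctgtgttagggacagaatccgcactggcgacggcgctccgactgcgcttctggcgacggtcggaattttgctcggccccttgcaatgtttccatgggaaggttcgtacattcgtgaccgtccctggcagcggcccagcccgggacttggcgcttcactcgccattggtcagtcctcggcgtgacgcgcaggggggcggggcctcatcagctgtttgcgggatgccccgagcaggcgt

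Of 35116 RefSeq promoter windows of the same kind (250 bases before to 50 after a start), 2.92% held the M-box letters, 3.57% the interferon response motif, 7.71% the AP-1 motif (TGANTCA) and 1.91% the NF-kB motif (GGG and TTTCC with any 2 bases between). Promoter windows were given for 9 of the 10 genes, MCL1 having none, and only the BCL2A1 window held any of the 4 motifs. BCL2A1 also had the lowest GC content of these windows, 41.0%, against a median of 58.7% over all 35116, 13.6% of which were at or below it. The windows of the other 8 genes ran from 48.7% (1 of 5 for BID) to 78.0% (another BID window). A match of letters is a description and does not show that a factor is bound.

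FPKM corrects for transcript length, so levels can be compared between the genes. MCL1 was the most abundant in all libraries but 1, at 93.6 to 271 FPKM, and BAD, PMAIP1 and BCL2L1 held the next ranks, at 33.4 to 113, 15.8 to 101 and 19.2 to 67.7. BAK1 (9.76 to 25.9) and BID (5.39 to 13.2) followed. The scarce genes were BCL2L11 (0.421 to 3.04), BMF (0.216 to 2.57) and BCL2 (0.799 to 2.29), near the level of 1 FPKM, where a value can rest on few fragments. The mean read coverage per base was 0.425 to 3.39 over BCL2L11, the thinnest of these genes. It was 1.02 to 20.2 over BMF and 3.68 to 13.1 over BCL2. BCL2A1 spanned both ranges, from 0.364 to 19.6 FPKM, a 53.9-fold span against 2.46-fold for BID and 11.9-fold for BMF.

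**Figure D1:**
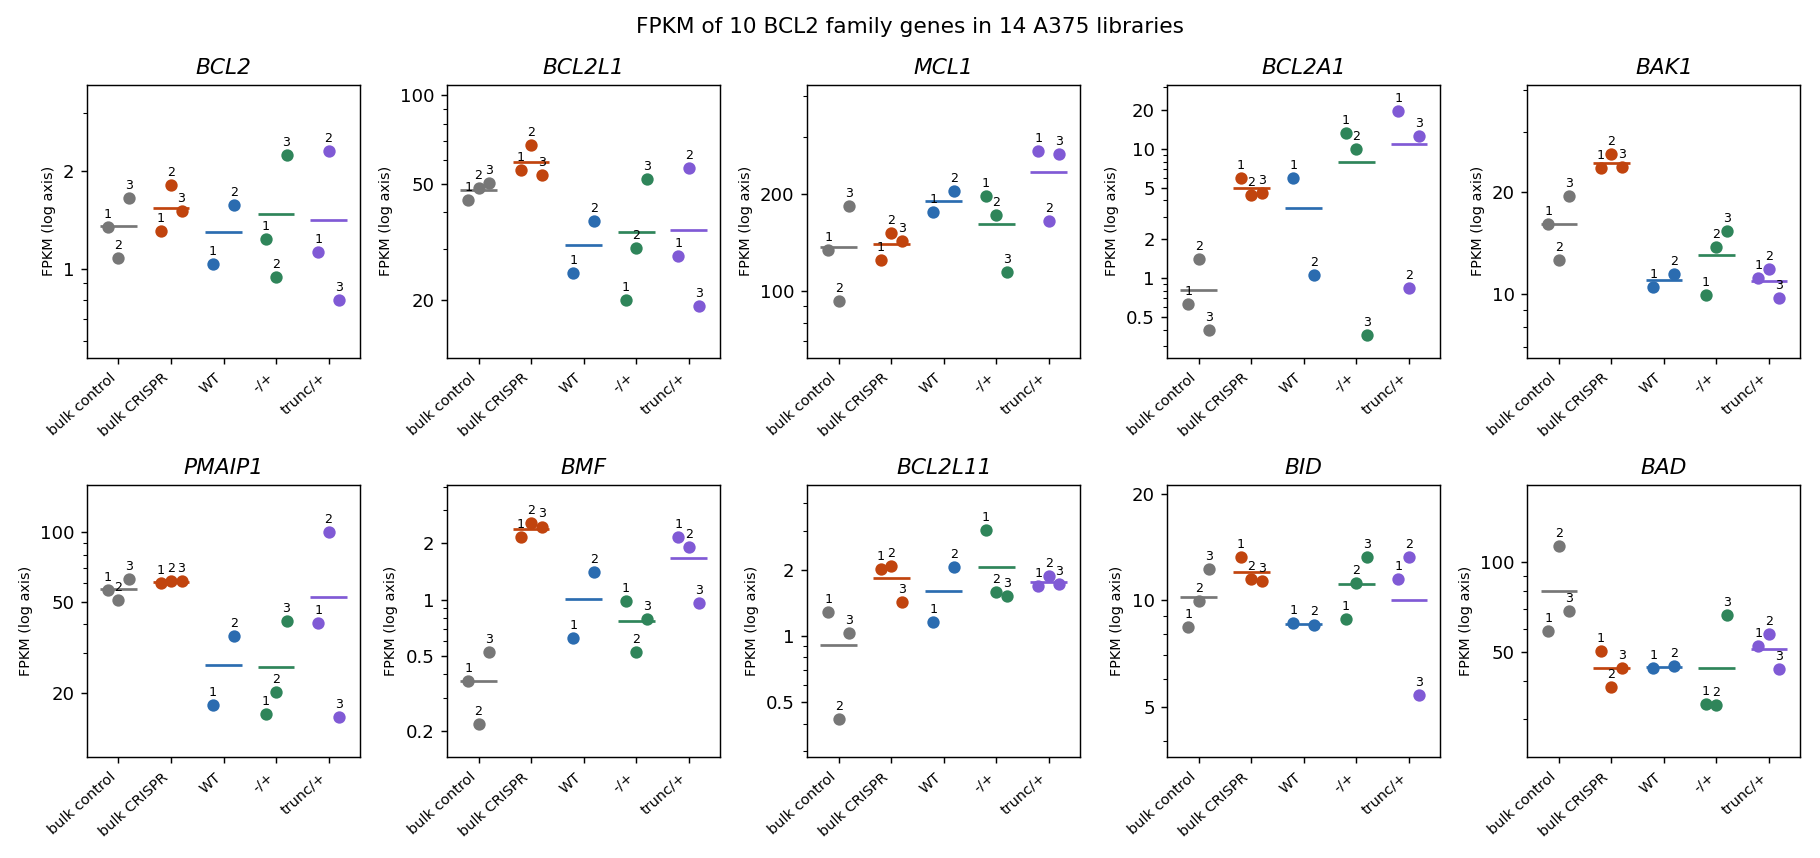
FPKM (log axis) of each gene in the 14 libraries, by group; points are libraries with their replicate number and bars are group means. BCL2A1 runs from 0.364 to 19.6 FPKM and splits the clones within each genotype, whereas every bulk CRISPR library holds more BAK1 than any other library. BMF is highest in bulk CRISPR by group mean only, with trunc/+ clone 1 (2.17 FPKM) above bulk CRISPR 1 (2.15).

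The 5 groups were ordered by mean for each gene, which gives 40 pairs of neighbouring groups, and the libraries of 37 of these pairs overlapped. The 3 that did not were bulk CRISPR above bulk control for BCL2L1 and for BAK1, and bulk control above trunc/+ for BAD. For BCL2A1 the order was trunc/+ (11.0 ± 9.49, SD), -/+ (7.91 ± 6.74), bulk CRISPR (4.98 ± 0.847), WT (3.52 ± 3.49) and bulk control (0.807 ± 0.526), with all neighbours overlapping. For MCL1 it was trunc/+ (233 ± 59.8), WT (190 ± 19.9), -/+ (161 ± 42.2), bulk CRISPR (139.7 ± 13.4) and bulk control (136.9 ± 45.0), again with all neighbours overlapping. By group mean, BAK1 and BCL2L1 were highest in the bulk populations, but single libraries overlapped. The 8 clones held 9.76 to 15.4 FPKM of BAK1 against 12.6 to 25.9 in the 6 bulk libraries. For BCL2L1 these ranges were 19.2 to 56.5 and 43.9 to 67.7 FPKM.

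The first comparison asks what changed in the uncloned population when Z18 was edited. Its differences rest on controls that were less alike across genes than the edited libraries. Pearson's r of log2(FPKM + 1) between libraries was 0.915 to 0.950 in the controls and 0.983 to 0.988 in bulk CRISPR. BCL2A1, BMF, BCL2L11, BCL2L1 and BAK1 were higher in all bulk CRISPR libraries than in all controls, and BAD was lower. Of the pro-survival genes BCL2A1 differed most and of the BH3-only genes BMF, while MCL1 and BCL2, among the highest and the lowest levels of the 10, differed little. Lack of overlap between the groups was common in this comparison: of 12114 genes tested, 21.8% were higher without overlap and 10.4% lower without overlap (32.2% in either direction), against 5 and 1 of these 10.

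Among the pro-survival genes, BCL2A1 was at 0.628, 1.40 and 0.394 FPKM in the controls and at 5.95, 4.39 and 4.61 in bulk CRISPR. The lowest edited library was above the highest control by more than the range of the controls, and the log2FC on the log2(FPKM + 1) scale was 1.76 (SE 0.26). BCL2L1, whose product BCL-XL protects many solid tumour lines, was at 43.9, 48.2 and 50.1 FPKM in the controls and 55.6, 67.7 and 53.6 in bulk CRISPR. Its groups were separated by a gap smaller than the spread within bulk CRISPR, and the log2FC was 0.30 (SE 0.20). MCL1 was at 134, 93.6 and 183 FPKM in the controls and 125, 151 and 143 in bulk CRISPR, so that the controls surrounded the edited libraries. Its log2FC of 0.08 (SE 0.27) became -0.17 without control 2, its lowest library. BCL2 was at 1.34, 1.07 and 1.65 against 1.30, 1.81 and 1.5 FPKM (log2FC 0.11, SE 0.20; -0.15 with quantile scaling), again with overlapping groups.

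The effector BAK1, which forms the pore once activated, was at 16.1, 12.6 and 19.5 FPKM in the controls and 23.5, 25.9 and 23.7 in bulk CRISPR. All edited libraries lay above all controls, with a log2FC of 0.59 (SE 0.22).

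The BH3-only genes differed unevenly. BMF, whose product is held at the cytoskeleton until stress releases it, was at 0.369, 0.216 and 0.526 FPKM in the controls and 2.15, 2.57 and 2.46 in bulk CRISPR (log2FC 1.31, SE 0.19). All its controls were under the minimum of 1 FPKM, so BMF entered the fit only through the group in which it was high. BCL2L11, which encodes BIM and is repressed by MAPK signalling, was at 1.28, 0.421 and 1.03 against 2.00, 2.07 and 1.43 FPKM (log2FC 0.59, SE 0.24), with only a small gap between the nearest libraries. PMAIP1, which encodes the MCL1 antagonist NOXA, was nearly level, at 56.0, 50.9 and 62.6 against 60.4, 61.7 and 61.4 FPKM (log2FC 0.12, SE 0.19). BID, cleaved by caspase 8 to link death receptors to mitochondria, was at 8.42, 9.97 and 12.3 against 13.2, 11.5 and 11.3 FPKM (log2FC 0.23, SE 0.23). BAD, which neutralises BCL2 and BCL-XL when not phosphorylated, was the only one of the 10 with a negative difference, at 58.8, 113 and 68.9 FPKM in the controls and 50.5, 38.4 and 44.4 in bulk CRISPR. Its log2FC was -0.79 (SE 0.28), and -0.52 without control 2, which held the highest BAD level of the series.

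The median log2FC of the 10 genes was 0.26, with 9 above 0, against a median of 0.18 and 64.7% above 0 over all 12114 genes tested. That general shift was 0.03 after quantile scaling. Relative to it, PMAIP1, BCL2 and MCL1 lay below the median gene, and BID and BCL2L1 lay just above it. Over all genes, 0.347% were past the threshold of limma (adjusted p under 0.05). No call is given for the 10 genes, which were chosen with these values in view.

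The bulk controls stood apart in their interferon-stimulated genes. All 5 genes of the interferon list (IFI6, IFI27, IFIT1, ISG15 and MX1) fell in bulk CRISPR with log2FC of -2.62 to -5.57 (limma adjusted p = 0.024 for MX1 and lower for the others), and their summed FPKM was 648 to 1748 in the controls, 40.0 to 43.6 in bulk CRISPR and 30.1 to 68.7 in the clones. The summed level was thus higher in each control than in every other library, and its part in the differences of the BCL2 family genes was not tested. Of the fibroblast markers, 2 of 5 reached the filter, and the list summed to 2.60 to 3.31 FPKM in the controls against 7.58 to 9.02 in bulk CRISPR. The melanocytic list summed to 17.6 to 31.5 and 34.4 to 42.7 FPKM, and the haematopoietic list, nearly all CD68, to 18.0 to 49.2 and 48.8 to 55.1. Their part in the differences was not tested either.

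**Figure D2:**
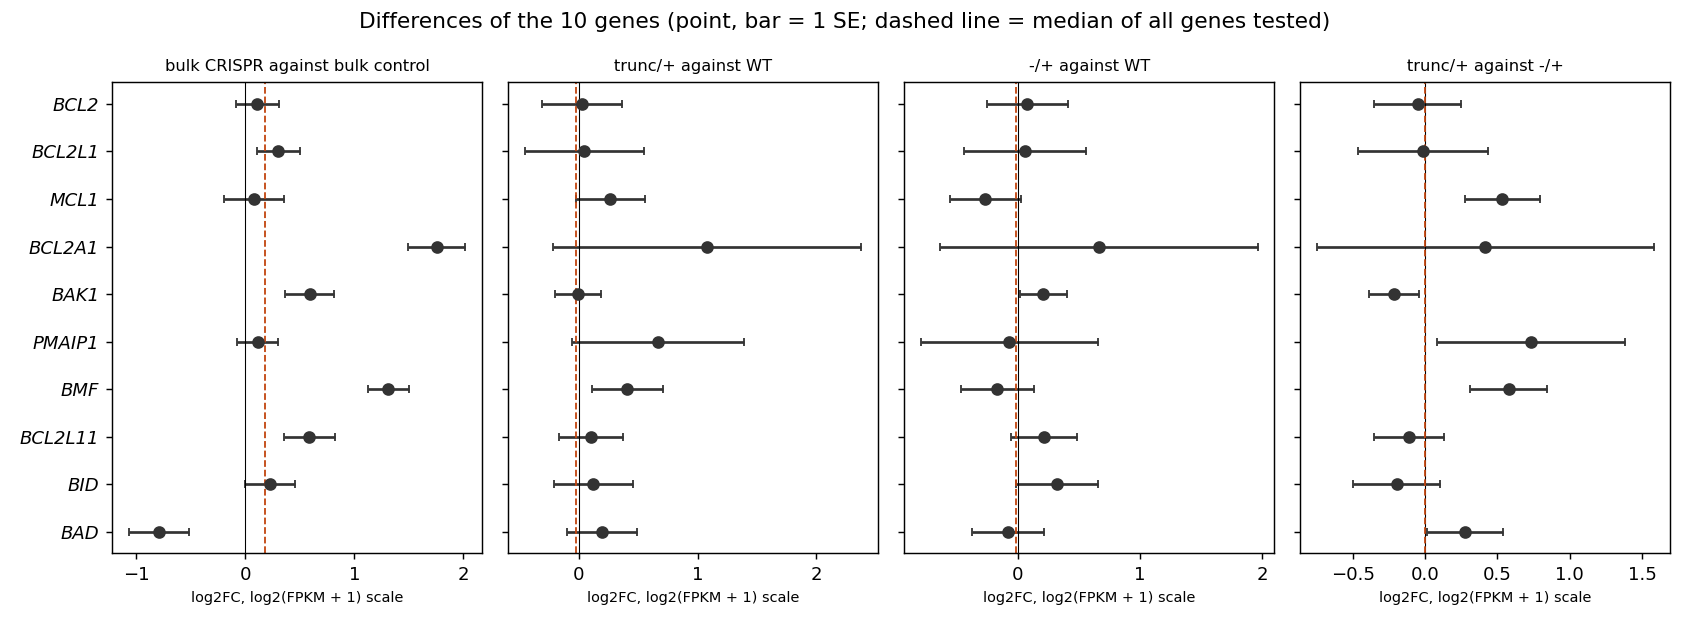
log2FC of each gene on the log2(FPKM + 1) scale in the 4 comparisons, with bars of 1 SE; the dashed line is the median of all genes tested. In bulk, BCL2A1 (1.76) and BMF (1.31) lie far to the right and BAD (-0.79) to the left, and in the clone comparisons the bars of BCL2A1 are more than 1 log2 unit to each side.

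The clone comparisons ask what a heterozygous truncation or loss did against WT clones. The threshold of limma was passed by few genes in them: 0.00775% of 12904 genes tested were called in trunc/+ against WT, 0.00775% in -/+ against WT and 0% in trunc/+ against -/+. Against WT, no member was without overlap in trunc/+ (26% of all genes tested were, 10.6% higher and 15.4% lower), and only BID was in -/+ (8.83, 11.2 and 13.2 FPKM against 8.62 and 8.53; 6.16% of all genes tested were higher without overlap, 8.44% lower and 14.6% either). In trunc/+ against -/+, where the unadjusted p was under 0.05 for 402 genes that were higher and 408 that were lower, all 10 overlapped (11.2% of all genes tested did not, 4.79% higher and 6.45% lower).

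Clones of the same genotype could lie far apart. For 10 of 10 genes the largest range within a genotype exceeded the range of the 3 genotype means on the log2(FPKM + 1) scale, with 3.49 against 1.08 for BCL2A1, 2.60 against 0.73 for PMAIP1 and 1.51 against 0.06 for BCL2L1. The closest was BMF, with 0.69 against 0.58. The largest range of single clones tends to exceed a range of means, since means vary less. The same count over all genes was not made, so nothing is read from 10 of 10.

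BCL2A1 was at 5.98 and 1.05 FPKM in WT clones 1 and 2, 13.3, 10.0 and 0.364 in -/+ clones 1 to 3, and 19.6, 0.835 and 12.6 in trunc/+ clones 1 to 3. Each genotype thus held 1 clone near 1 FPKM or below and 1 or 2 clones at several FPKM or more. The log2FC was 1.08 (SE 1.30) in trunc/+ against WT and 0.66 (SE 1.30) in -/+ against WT, and leaving out single clones moved the first from 0.20 to 2.14 and the second from -0.22 to 1.73. PMAIP1 was at 17.7 and 35.6 FPKM in the WT clones, 16.3, 20.2 and 41.3 in the -/+ clones and then 40.6, 101 and 15.8 in the trunc/+ clones. Its highest and its lowest library of the whole series were therefore both trunc/+ clones. BCL2L1 was at 24.8 and 37.2 FPKM in the WT clones, 20.1, 30.2 and 51.9 in the -/+ clones and then 28.4, 56.5 and 19.2 in the trunc/+ clones, with log2FC of 0.05 (SE 0.50) and 0.06 (SE 0.50) against WT.

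MCL1 was at 176 and 204 FPKM in the WT clones, 197, 172 and 115 in the -/+ clones and then 271, 165 and 265 in the trunc/+ clones. Trunc/+ clones 1 and 3 were above all other libraries of the series and clone 2 was below both WT clones (log2FC 0.27, SE 0.29, against WT; 0.53, SE 0.26, against -/+). BMF was at 0.622 and 1.41 FPKM in the WT clones, 0.987, 0.526 and 0.786 in the -/+ clones and then 2.17, 1.91 and 0.960 in the trunc/+ clones. Its log2FC was 0.41 (SE 0.30) in trunc/+ against WT and 0.58 (SE 0.27) against -/+, with trunc/+ clone 3 inside the range of both other genotypes. BCL2 was at 1.03 and 1.57 in the WT clones, 1.23, 0.942 and 2.23 in the -/+ clones and then 1.13, 2.29 and 0.799 FPKM in the trunc/+ clones, without an order by genotype. BAK1, BCL2L11, BID and BAD had log2FC of -0.08 to 0.32 against WT in trunc/+ and -/+, with an SE of 0.19 to 0.34. With 1 clone left out, the sign changed for 5 of the 10 genes in trunc/+ against WT, 7 in -/+ against WT and 5 in trunc/+ against -/+, against 1 in the bulk comparison.

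Some of the genes ordered the 8 clones alike across genotypes, and others did not. WT clone 2, -/+ clone 3 and trunc/+ clone 2 were the 3 lowest in BCL2A1, the 3 highest in BCL2 and BCL2L1 and the 3 lowest in SOX10 (115, 47.8 and 73.4 FPKM against 146 to 212 in the other 5). The same clones held 6.88, 2.43 and 0.474 FPKM of the melanocytic marker S100B, against 24.4 to 85.4 in the other 5. Of S100A1 they held 4.97, 2.88 and 3.40 FPKM, against 22.0 to 167. They held ranks 4, 2 and 1 in PMAIP1, with trunc/+ clone 1 at rank 3. The same 3 clones, in that order, held ranks 4, 1 and 3 in BAK1 and 4, 1 and 2 in BAD, but 7, 2 and 1 in BID, 2, 7 and 3 in BCL2L11, 3, 6 and 2 in BMF and 3, 8 and 7 in MCL1, where they did not stand together. Trunc/+ clone 3 ranked 8 of 8 in PMAIP1, BCL2, BCL2L1, BAK1 and BID, but 2 in MCL1 and 3 in BCL2A1. MITF did not follow the same order: -/+ clones 1 and 3, the second highest and the lowest in BCL2A1, held the most MITF, 19.7 and 14.6 FPKM, and trunc/+ clone 1, the highest in BCL2A1, held 3.73. The summed melanocytic markers were at 129 to 369 FPKM in the WT clones, 67.9 to 477 in -/+ and 88.5 to 431 in trunc/+, and the fibroblast markers at 6.20 to 8.84, 3.51 to 11.0 and 2.54 to 10.4; their part in these orders was not tested. The orders are over 8 clones of 3 genotypes and are given without a correlation. The 3 clones were picked out by these values, and how many of all genes split the clones this way was not counted.

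**Figure D3:**
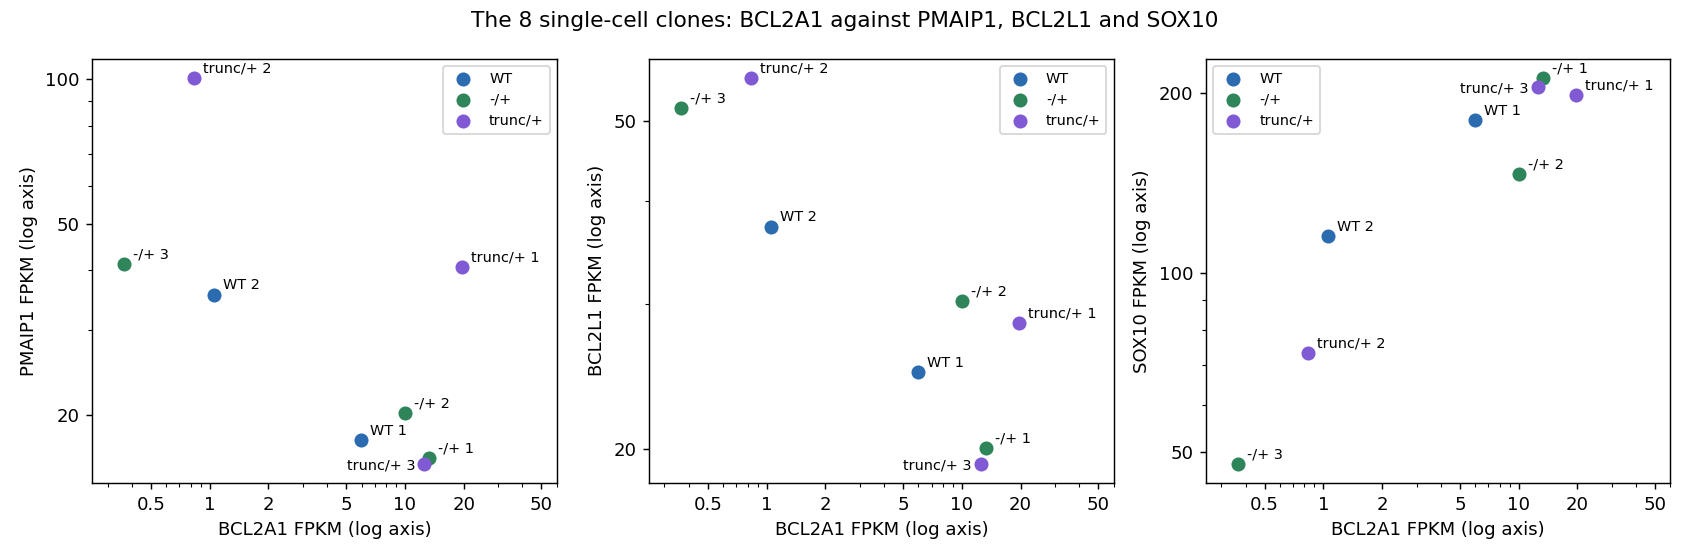
BCL2A1 FPKM (log axis) against PMAIP1, BCL2L1 and SOX10 FPKM (log axes) in the 8 clones, coloured by genotype. The 3 clones with about 1 FPKM of BCL2A1 or less, 1 of each genotype, hold the most BCL2L1 (37.2 to 56.5) and the least SOX10 (47.8 to 115).

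Genes whose levels followed a member most closely over the 14 libraries were found among 13049 genes, by Pearson's r of log2(FPKM + 1), for the 3 members of largest spread. For BCL2A1 they were CD82 (r = 0.91), SLC16A4 (0.90) and RNF5P1 (0.90). For PMAIP1 they were C11orf68 (0.94), UNC13D (0.94) and TM4SF19-TCTEX1D2 (0.94), and for BCL2L1 they were NID2 (0.97), SDC1 (0.96) and MISP (0.95). The libraries share their groups, so these values are descriptions of likeness.

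Summing FPKM shows how the pool of pro-survival RNA was made up, with BCL2L2 (BCL-w), which is no member but has the same role, added at 4.36 to 14.1 FPKM. MCL1 supplied 63.0% to 85.7% of the pool, BCL2L1 6.19% to 32.4%, BCL2L2 2.93% to 5.80%, BCL2A1 0.160% to 5.88% and BCL2 0.258% to 1.24%. BCL2A1 thus remained a minor part even where it was highest: it made up 0.330%, 0.942% and 0.160% in the bulk controls, 3.00%, 1.85% and 2.15% in bulk CRISPR and 5.88%, 0.353% and 4.06% in the trunc/+ clones. The share of BCL2L1 was 20.3% to 32.4% in the bulk libraries. In the clones it was 23.9% and 28.9% in trunc/+ clone 2 and -/+ clone 3 and 6.19% to 14.6% in the other 6, and the same 2 clones had the lowest MCL1 shares of the 8 (69.6% and 63.8%).

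PMAIP1 and BAD together supplied most of the RNA of the 5 BH3-only genes, 23.3% to 57.4% and 32.9% to 64.9%. PMAIP1 exceeded BAD in all 3 bulk CRISPR libraries (47.1% to 53.1% against 33.1% to 39.3%) and in none of the controls (29.1% to 44.8% against 47.1% to 64.8%), with PMAIP1 itself nearly level and BAD lower. Of the clones, only trunc/+ clone 2 had more PMAIP1 than BAD (57.4% against 32.9%). The summed BH3-only FPKM was 116 to 128 in bulk CRISPR, 125 to 175 in the controls and 62.7 to 175 in the clones, and the summed pro-survival FPKM was 198 to 237, 149 to 247 and 179 to 334. BMF stayed at most 2.21% and BCL2L11 at most 4.85% of the BH3-only sum. That sum holds the 5 members only. The BH3-only genes BBC3 (1.48 to 13.9 FPKM over the 14 libraries) and BIK (0.386 to 16.2) are no members and were left out.

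**Figure D4:**
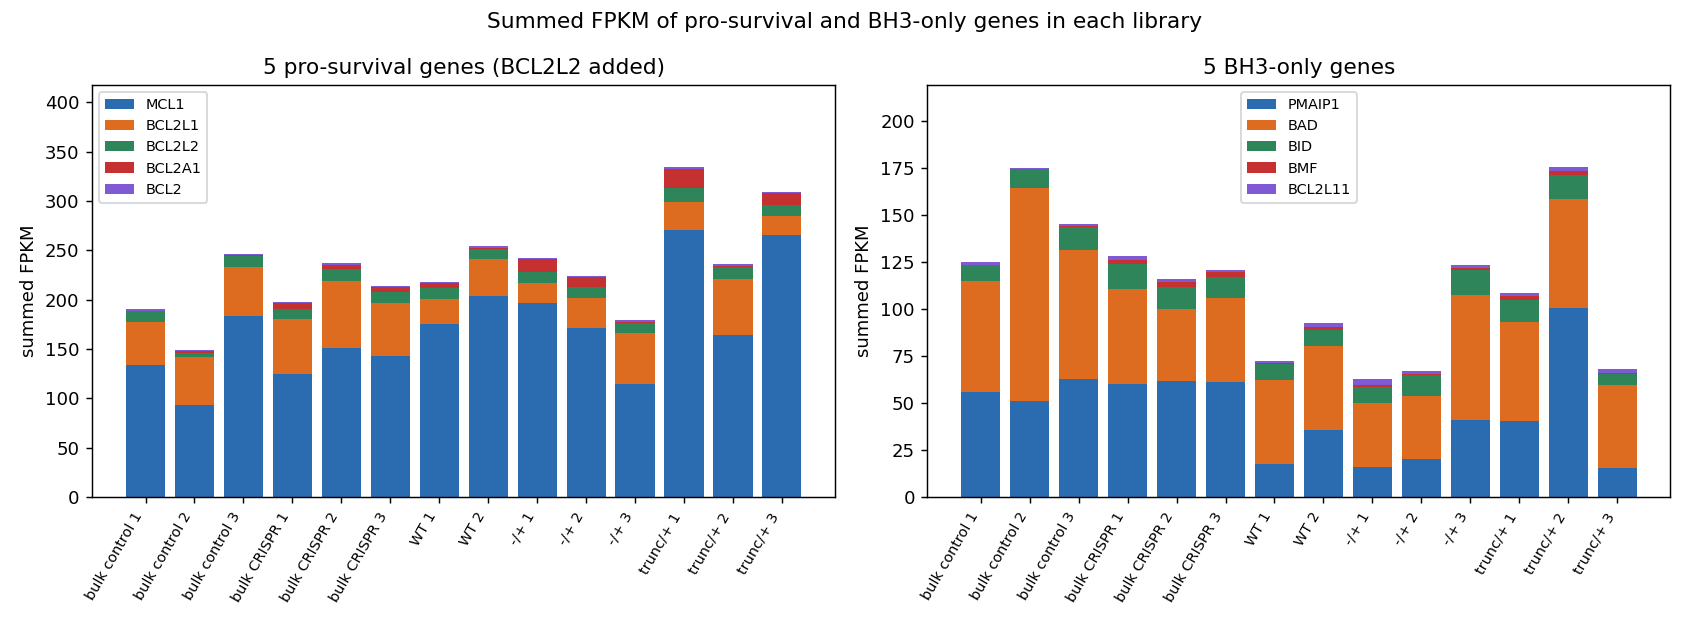
Summed FPKM (linear axis from 0) of 5 pro-survival and 5 BH3-only genes in each library, stacked by gene. MCL1 supplies 63.0% to 85.7% of every pro-survival bar, and BAD is smaller than PMAIP1 in the 3 bulk CRISPR bars and in trunc/+ clone 2.

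The transposable element (TE) files gave a further readout of some of these transcripts, since they count fragments over repeat copies inside the genes on the strand of the gene. They come from the same libraries and are given as a description. A MER91A copy, an old DNA transposon in a UTR of BMF (chromosome 15, 40090042 to 40090220), held 0, 1 and 0 estimated fragments in the bulk controls, and the edited populations held 6, 16 and 22. In the clones it held 7 and 15 in the WT clones, 4, 2 and 4 in the -/+ clones and then 26, 9 and 4 in trunc/+, so that the library with most BMF RNA of the clones also held most fragments here. A MamSINE1 copy in a UTR of BCL2 (chromosome 18, 63124007 to 63124166) held 6, 0 and 0 fragments in the bulk controls, and the edited populations held 18, 21 and 24. BCL2 as a whole overlapped between the same groups, so this stretch and the FPKM of the gene differed in their pattern. In the clones the MamSINE1 counts were 3 and 17 in the WT clones, 3, 6 and 18 in the -/+ clones and then 7, 14 and 7 in trunc/+, highest in the same clone of WT, -/+ and trunc/+ as BCL2 FPKM.

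Repeat copies in the introns of BCL2A1 held 0, 0 and 1 fragments in the bulk controls, 3, 4 and 1 in bulk CRISPR, 1 and 1 in the WT clones, 3, 3 and 0 in -/+ and 18, 5 and 43 in the trunc/+ clones. All 3 trunc/+ clones were thus above every other library, but clone 2 only narrowly, with 5 fragments against 4 in bulk CRISPR 2. That clone held 0.835 FPKM of the gene. Scaled to the aligned fragments of each library (CPM), the counts were 0.545, 0.180 and 1.53 in trunc/+ and at most 0.160 elsewhere. How many other genes separate the groups this way was not counted, and nothing is read from so few fragments. Intronic repeats of BCL2L1 were the most covered of the 10 genes, at 2.24 to 5.23 CPM in the controls, 3.71 to 8.07 in bulk CRISPR and 1.15 to 4.40 in the clones. MCL1 and PMAIP1 held no counted repeat copy. GENCODE annotates opposite-strand genes over BMF (BMF-AS1), BCL2L11 (MIR4435-2HG), BCL2 (a lncRNA without a symbol), BCL2L1 (BCL2L1-AS1 and ABALON), BAK1 (GGNBP1) and BAD (GPR137), and same-strand genes over BCL2 (another lncRNA without a symbol) and BID (MIR3198-1). The pseudogenes BAK1P1 and BAK1P2 resemble BAK1, so reads could be shared where strand or copies were not resolved.

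Around these members, 80 further genes of the apoptosis pathway were examined in 6 lists, none of them members. Of the 67 that could be tested in bulk, limma called 0, and 14 had an unadjusted p under 0.05 (11 higher, 3 lower). That was 20.9% of them, as it was 20.9% of all genes tested, and their median log2FC was 0.26 against 0.18 for all genes tested. Without bulk control 1 limma called 7 of 66, among them APAF1, ATF3 and RELA. Over all 11904 genes tested it then called 1327, so nothing is read from the 7. With a replicate block it called ATF3, where 123 of all 12114 genes were called higher and 97 lower. With all 14 libraries in the fit it called BIRC5, where 207 of all genes were called higher and 170 lower.

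The other BCL2 family genes included BAX, the second effector, at 154 to 272 FPKM in the bulk libraries and 54.5 to 119 in the clones. BBC3, which encodes the p53-induced BH3-only protein PUMA, was at 5.01 to 13.9 FPKM in the bulk libraries and 1.48 to 5.34 in the clones. The list had a median log2FC of -0.03 in bulk, with 3 of 9 tested genes above 0. Its largest differences were in BNIP3L, a mitophagy receptor (log2FC 0.59, SE 0.27, limma adjusted p = 0.26), and the BH3-only gene BIK (-0.58, SE 0.46, adjusted p = 0.47).

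Of 15 caspase and apoptosome genes tested in bulk, 11 had a log2FC above 0 (median 0.22). APAF1, the scaffold of the apoptosome, was at 1.98, 0.876 and 1.21 FPKM in the controls and 3.04, 4.34 and 3.45 in bulk CRISPR (log2FC 0.99, SE 0.25, adjusted p = 0.13). ENDOG, a mitochondrial nuclease, had a log2FC of -0.88 (SE 0.31, adjusted p = 0.19). Of the 6 caspase inhibitors tested, BIRC5 (survivin, a mitotic protein of that family) was at 46.9, 63.9 and 59.5 against 33.9, 15.7 and 31.5 FPKM without overlap (log2FC -1.10, SE 0.31, adjusted p = 0.15), and BIRC6 had 0.56 (SE 0.30, adjusted p = 0.30).

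The 8 death receptor genes tested had a median of 0.36, led by TNFRSF21 (0.92, SE 0.43, adjusted p = 0.26) and the kinase RIPK1 (0.90, SE 0.37, adjusted p = 0.22). The 12 mitochondrial partners had a median of 0.47 with 10 above 0, led by the MCL1 deubiquitinase USP9X (0.82, SE 0.31, adjusted p = 0.20) and VDAC1, a channel of the outer mitochondrial membrane (0.75, SE 0.25, adjusted p = 0.18). Of the 17 transcription factors, 13 were above 0 (median 0.31). ATF3, a stress-induced factor, was at 14.9, 9.36 and 7.07 FPKM in the controls and 25.2, 40.2 and 23.7 in bulk CRISPR (log2FC 1.44, SE 0.32, adjusted p = 0.10), the largest difference of the 67. RELA, the NF-kB subunit, was at 27.4, 11.6 and 19.7 against 33.5, 40.5 and 38.6 FPKM (log2FC 0.98, SE 0.31, adjusted p = 0.16).

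**Figure D5:**
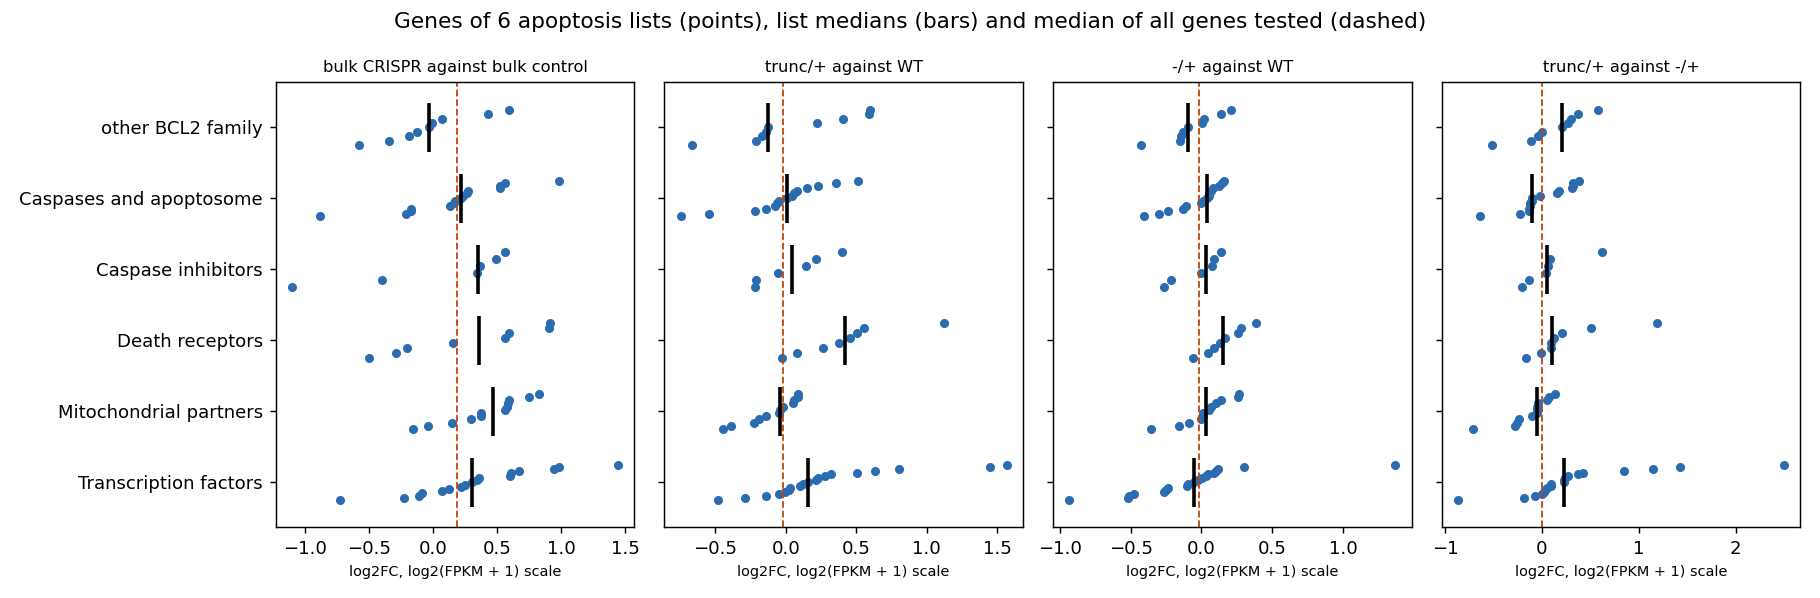
log2FC on the log2(FPKM + 1) scale of the tested genes of 6 apoptosis lists in the 4 comparisons; points are genes, black bars list medians and the dashed line the median of all genes tested. In bulk, 5 of the 6 medians lie between 0.22 and 0.47 and that of the other BCL2 family genes at -0.03; no gene passed the threshold.

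In the clones 69 of the 80 genes were tested and limma called 0 in each comparison. The unadjusted p was under 0.05 for 2 genes that were higher and 4 that were lower in trunc/+ against WT, for 0 and 1 in -/+ against WT and for 4 and 3 in trunc/+ against -/+. These are 8.7%, 1.45% and 10.1% of the list genes, against 7.59%, 1.82% and 6.28% of all genes tested. In trunc/+ against WT the list medians lay between -0.12 (other BCL2 family) and 0.42 (death receptors), where all genes tested had -0.02. DIABLO, which encodes the inhibitor-of-apoptosis antagonist SMAC, was at 45.0 and 36.8 FPKM in the WT clones, 38.5, 33.4 and 41.3 in the -/+ clones and then 26.3, 27.5 and 18.7 in the trunc/+ clones. All 3 trunc/+ clones were below the 5 others (log2FC -0.75, SE 0.20, limma adjusted p = 0.55, against WT; -0.64, SE 0.18, adjusted p = 0.79, against -/+). BCL2L12 was at 23.3 and 22.8, 19.8, 20.0 and 22.4, and 15.2, 16.6 and 11.3 FPKM in the same order, again lowest in the 3 trunc/+ clones (log2FC -0.67, SE 0.17, adjusted p = 0.55, against WT). TNFRSF21 (death receptor 6) was at 42.4 and 42.9, 28.3, 37.3 and 64.3, and 118, 132 and 53.4 FPKM, with a log2FC of 1.12 (SE 0.44, adjusted p = 0.65) against WT and 1.18 (SE 0.39, adjusted p = 0.79) against -/+.

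Other leading genes of trunc/+ against WT were ATF3 (1.45, SE 0.80), FOS (1.57, SE 0.89), TRADD (0.56, SE 0.25), BNIP3 (0.60, SE 0.37), BIRC3 (0.40, SE 1.17), CFLAR (-0.22, SE 0.27), DFFA (-0.54, SE 0.17), YWHAZ (-0.45, SE 0.26) and HUWE1 (-0.39, SE 0.15), the last an MCL1 ubiquitin ligase. In -/+ against WT they were MITF (1.37, SE 0.61), FOS (-0.93, SE 0.89), BOK (-0.42, SE 0.32), BIK (0.21, SE 0.74), DFFA (-0.41, SE 0.17), CASP10 (-0.30, SE 0.20), TNFRSF1A (0.38, SE 0.29), RIPK1 (0.28, SE 0.18), VDAC2 (-0.35, SE 0.19), YWHAZ (0.26, SE 0.26), CFLAR (-0.26, SE 0.27) and BIRC3 (-0.22, SE 1.17). In trunc/+ against -/+ they were FOS (2.50, SE 0.80), ATF3 (1.42, SE 0.71), YWHAZ (-0.71, SE 0.23), BIRC3 (0.62, SE 1.05), BNIP3 (0.58, SE 0.33), BCL2L12 (-0.51, SE 0.16), TRADD (0.51, SE 0.22), CASP9 (0.39, SE 0.29), VDAC3 (-0.28, SE 0.27) and BIRC5 (-0.21, SE 0.13). FOS, an immediate early gene, was at 125 FPKM in trunc/+ clone 3 and 4.07 to 43.7 in the other 7 clones, and BIRC3, an NF-kB target like BCL2A1, was at 0.956 to 21.4 FPKM without an order by genotype. Its 3 highest clones were trunc/+ clone 1, WT clone 2 and -/+ clone 2, of which WT clone 2 was among the 3 lowest in BCL2A1. The part of NF-kB in the level of either gene was not tested.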

How the data were processed

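Poly(A)-selected, stranded RNA-seq of A375 cells gave 1 gene file and 1 TE file per library (14 libraries, 5 groups taken from the sample labels). The authors trimmed reads with cutadapt 4.6 and ran SQuIRE (version not given in the sources used here) on hg38; the deposited gene files hold FPKM, TPM and coverage per RefSeq gene from StringTie, and the deposited TE files hold estimated counts, unique counts and the number of aligned fragments. No gene counts were used here, so the precision of a gene's FPKM is not known from counting; TE counts cover counting error only and, without molecular identifiers, are not independent molecules.

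From these, log2(FPKM + 1) was fitted with limma 3.58.1 (trend, R 4.3.3) for genes with FPKM of at least 1 in at least 3 bulk or 2 clone libraries, the bulk groups alone and all 8 clones together, with Benjamini-Hochberg adjustment over all genes tested and a threshold of 0.05. TE fragments inside a gene were placed by GENCODE 44 and given as CPM over all aligned fragments. Pseudogene and antisense overlaps, motifs (both strands) and promoter sequences were read from the annotation tables. The fit was tested on simulated data. The named genes were all members, and in each comparison and list the 2 genes of largest absolute log2FC. Alternatives were a pseudocount of 0.1, no filter, TPM, quantile scaling, a replicate block, all 14 libraries, and each library left out. The members and the lists were chosen with earlier results of these data known. The paper states that the bulk CRISPR was done in triplicate. Nothing in the labels says that each bulk library came from a separate transfection, so a p-value covers only how much these libraries vary, which may be technical. The replicates of 1 group were not identical in any pair. Pearson's r between them, on the log2(FPKM + 1) scale, was 0.915 to 0.950 in the bulk controls and 0.983 to 0.988 in bulk CRISPR. Clones of the same genotype had 0.924 to 0.962.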

Additional observations from a re-analysis of the deposited data

How the results depend on the processing

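The bulk gene count was 42 with the settings of the report, and 20 with a pseudocount of 0.1, 16 with no filter, 26 with TPM, 73 with quantile scaling (25 higher and 48 lower, against 23 and 19), 220 with a replicate block and 377 with all 14 libraries. It ran from 4 to 1327 when 1 library was left out, with 1327 without bulk control 1. The pathway lists went from 0 to 1 with the replicate block, 1 with all 14 libraries and 0 to 7 with 1 library left out. Both clone comparisons with WT had 1 called gene: 0 with a pseudocount of 0.1, 3 with no filter, 0 with a replicate block, 2 (trunc/+) and 0 (-/+) with all 14 libraries, and 0 to 1 with 1 clone left out. In trunc/+ against -/+ the count was 0 under all of these. The cause of these shifts was not tested. When 1 library is left out, fewer libraries also enter the fit. Same-numbered libraries did not deviate together in most pairs (correlations of -0.17, -0.22 and 0.18 in bulk, -0.07 and 0.39, 0.51 and 0.15, and -0.04, -0.13 and -0.55 in the clone comparisons), so the replicate block rests on a shared number only.

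With 1 library left out, 33 of 217 log2FC values of the 10 genes had the opposite sign to the value reported, 1 of 57 in bulk and the others in the clone comparisons, and 4 of 240 had it under the other settings. BMF could not be fitted in bulk without any 1 of the CRISPR libraries, since too few libraries then reached the filter. The difference between the bulk and -/+ contrasts was called for 4 of 13164 genes and for 0 of 69 pathway genes (7 at an unadjusted p under 0.05). How many of all genes were under that unadjusted p was not counted, so nothing is read from the 7. BCL2, BMF and BCL2L11 lie near 1 FPKM, where the pseudocount shrinks differences and depth limits what can be seen, and the WT group has 2 clones.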
